A study of Mus musculus with 3 samples.

Results

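The guidance genes encode the semaphorins with their plexin and neuropilin receptors, the ephrins with the Eph receptors, the Slits with the Robos, and the netrins. They were taken by gene symbol, which gave 64 protein-coding genes of the 23284 symbols that each library lists. There were 7 class 3 semaphorins, 13 semaphorins of classes 4 to 7, 9 plexins, 2 neuropilins, 5 ephrins A, 3 ephrins B, 9 Eph A receptors, 5 Eph B receptors, 3 Slits, 4 Robos and 4 netrins. RNA-seq was done on GFP-sorted cells of mouse embryo digits, with 1 library for each of 3 cell groups. The Sox9+ library held GFP-positive digit cells at embryonic stage E13.5 of Sox9-eGFP/+ mice. The Lgr5+ library held GFP-positive cells of forelimb digits at E14.5 of Lgr5-eGFPCreERT2/+ mice, labelled as interzone, the band of cells at the site of a future joint. The Lgr5- library held GFP-negative forelimb digit cells of that genotype and day, labelled as non-interzone. All mice were on the C57/bl6 background, and every group carried a GFP reporter allele. The sources used here give neither the limb of the Sox9+ cells nor the number of embryos in a library. Cells were separated by reporter signal alone, so the Lgr5- sample can include interzone cells that lacked it.

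Guidance proteins were named for steering growing axons, and in other tissues they set cell repulsion, adhesion and boundaries. Secreted class 3 semaphorins typically bind a neuropilin joined to an A plexin, and Sema3e can bind Plxnd1 directly. Most other semaphorins are membrane proteins that bind plexins. Ephrins and Eph receptors act between touching cells and can signal into either cell, ephrins A being held by a lipid anchor and ephrins B by a transmembrane segment. Slits are secreted ligands of Robo receptors, and netrins bind Dcc, Neo1 and the Unc5 receptors. In the limb these families are known from nerve and vessel patterning, and ephrins and Eph receptors also from the sorting of mesenchymal cells and from bone.

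The values are FPKM, fragments scaled by transcript length and library total, so levels can be compared between genes and each is a share of its library. FPKM summed to 534025 to 593871 per library, and read counts and depth are unknown. Rn45s, the ribosomal RNA precursor, held 1.86%, 6.13% and 6.43% of the sums of Lgr5+, Lgr5- and Sox9+ cells. The sorting genes followed the labels in part: Lgr5 stood at 26.8, 1.36 and 3.48 FPKM in Lgr5+, Lgr5- and Sox9+ cells, whereas Sox9 stood at 332, 147.1 and 254.7 FPKM and was not highest in the library sorted for its reporter. Of 12 interzone markers, 9 were higher by at least 2-fold in Lgr5+ than in Lgr5- cells, with Gdf5 at 614.8 against 71.7 FPKM. That list includes Lgr5 itself and was chosen with earlier results of these data known. With 1 library per group no test was possible, no difference has a replicate check, and each comparison is of libraries and not of conditions. In such bulk samples, fewer cells of a type and less RNA per cell cannot be told apart. The 3 comparisons share libraries with each other and are given side by side.

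The libraries also differed in markers of other cell types. Skeletal muscle markers summed to 109.2 FPKM in Lgr5+ cells and 28.6 FPKM in each of the others, and at least 2-fold excess over Lgr5- cells was seen for 8 of 11 measured markers. Among skeletal lineages, chondrocyte markers summed to 4203, 2456 and 9143 FPKM in Lgr5+, Lgr5- and Sox9+ cells, and 11 of 12 were called lower in Lgr5- than in Sox9+ cells. Perichondrium, bone and tendon markers summed to 1876, 1458 and 1041 FPKM, and in Lgr5+ against Lgr5- cells 5 of 12 were higher (Kera 5.26-fold) and 5 lower (Runx2 3.78-fold). Epidermal markers summed to 60, 27.4 and 65.1 FPKM in Lgr5+, Lgr5- and Sox9+ cells, with 6 of 11 at least 2-fold higher in Lgr5+ than in Lgr5- cells. Macrophage markers summed to 104.8, 61.2 and 14.49 FPKM in that order, glial markers to 20.5, 19.3 and 40.2 FPKM, and red blood cell markers to 188.5, 5514 and 166.4 FPKM. Endothelial markers summed to 24.3, 31.1 and 19 FPKM, and none of the 10 measured markers differed 2-fold between Lgr5+ and Lgr5- cells. Neuronal markers summed to 19.2, 32 and 27.3 FPKM, with 2 of 5 measured, Tubb3 and Stmn2, at least 2-fold lower in Lgr5+ than in Lgr5- cells. Among the markers, Pax7 was listed at 0 in Sox9+ cells, Foxd3 and Snap25 in Lgr5+ cells, and Epb4.2 in Sox9+ and Lgr5+ cells. The part of these cell types in the differences below was not tested.

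Guidance genes were broadly present in digit cells. Measured genes were those at 1 FPKM or more in the higher library of a pair. Of the 64 genes 53 reached that level in some library, while 11 stood under 1 FPKM in every library: Sema3g, Sema7a, Plxnb3, Epha5, Epha6, Epha8, Epha10, Slit1, Robo3, Robo4 and Ntn5. Among the low genes, Sema3g, Plxnb3 and Robo3 were listed at 0 in Lgr5+ cells and Epha10 in Lgr5- cells. A difference was called at 2-fold or more in FPKM + 1, the scale of all folds given here, which understates the change of low genes. By that rule 16 of the 53 members, or 30.2%, differed in at least 1 of the 3 comparisons, where 13.9% of all 12754 symbols with 1 FPKM or more somewhere did, and the other 37 stayed within 2-fold in each. The 64 genes together held 860.7 FPKM in Lgr5+ cells, 798.8 FPKM in Lgr5- cells and 695.4 FPKM in Sox9+ cells. The highest level of all was that of the ligand gene Sema3c in Lgr5+ cells, and the receptor gene Ephb4 led in the other libraries. Of the 53 genes, 23 were highest in Lgr5- cells, 18 in Lgr5+ cells and 12 in Sox9+ cells, or 43.4%, 34% and 22.6%, where 26.6%, 39.1% and 34.3% of all 12754 symbols at 1 FPKM or more in some library were. Of the 23 genes, 19 lay within 2-fold of their level in each other library.

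**Figure D1:**
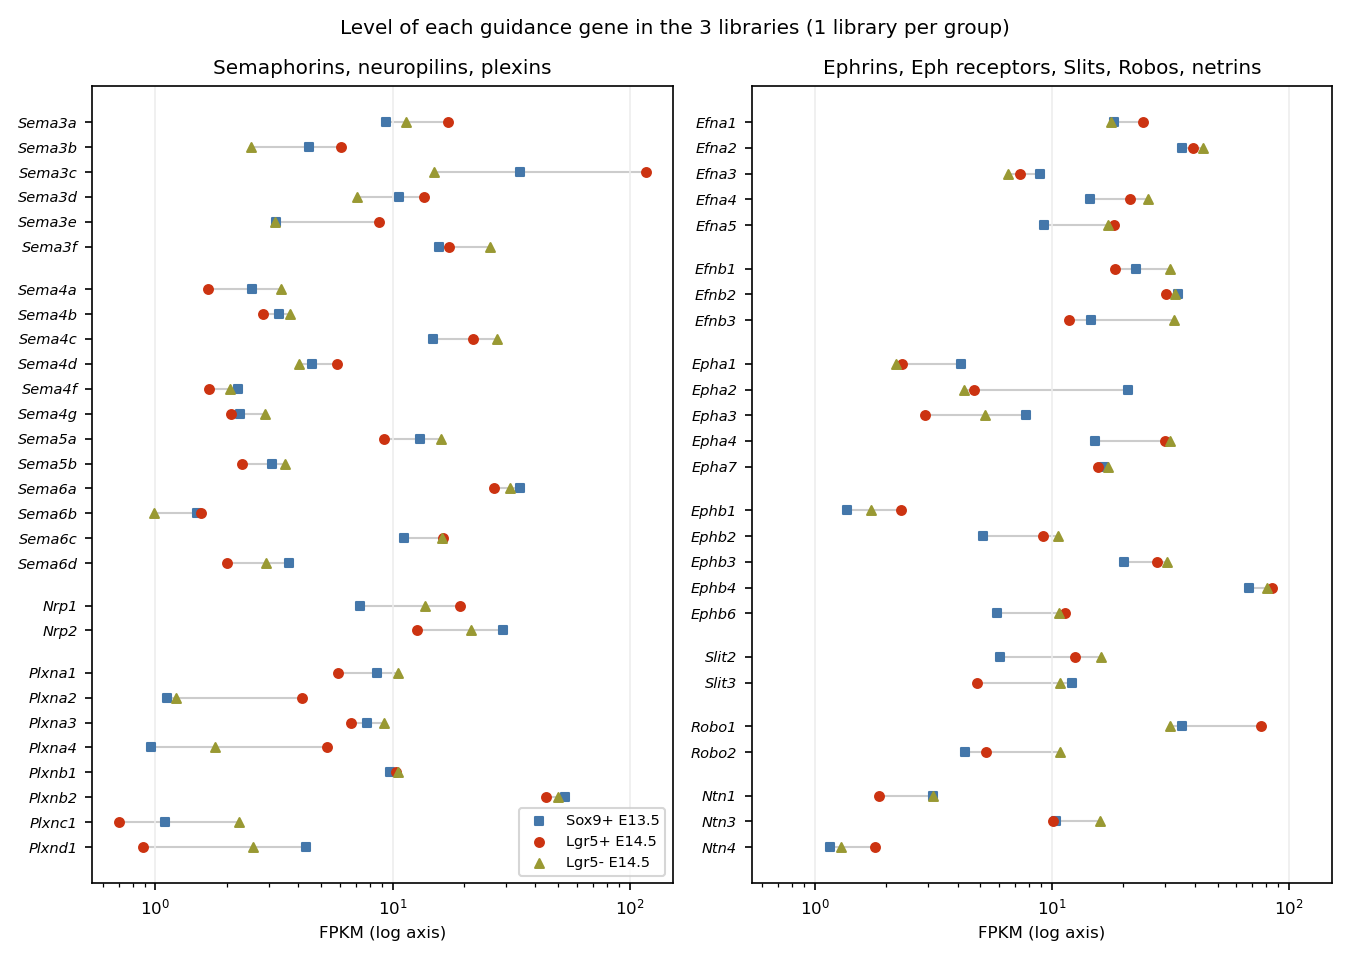
FPKM on a log axis of the 53 guidance genes with at least 1 FPKM in some library, grouped by family, with 1 point for each library and no error because each group is 1 library. Sema3c reaches 118 FPKM in Lgr5+ cells, and Epha2 stands at 20.9 FPKM in Sox9+ cells against 4.68 and 4.24 FPKM in Lgr5+ and Lgr5- cells.

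The comparison of Lgr5+ with Lgr5- cells set cells labelled interzone against other digit cells of the same day and genotype. Class 3 semaphorins, A plexins and Robo1 supplied all the members that were higher by at least 2-fold in Lgr5+ cells, and an ephrin B and a Slit were lower. Of 53 measured members 6 were higher and 2 lower, or 11.3% and 3.77%, where 3.64% and 1.89% of all 12438 measured symbols were, 5.53% in either direction. The split was 6 to 4 after rescaling to TPM and 5 to 3 with upper-quartile scaling, which moved the median log2 ratio of all symbols from 0.08 to -0.02. All symbols split 616 to 355 and 380 to 289 under these settings. The median log2 ratio of the measured members was -0.14, and that of all measured symbols was 0.08. Of the 8 calls, those of Sema3c, Robo1 and Efnb3 were kept at every pseudocount and scaling tried, and the other 5 ended under at least 1 of them.

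The second comparison was of interzone-labelled Lgr5+ cells with digit cells 1 day younger that were sorted by another reporter. Here most of the genes that differed were receptors. Of 22 measured receptors 4 were higher (Nrp1, Plxna2, Plxna4 and Robo1) and 4 lower (Nrp2, Plxnd1, Epha2 and Epha3), or 36.4% either way. Of 31 measured ligands 2 were higher and 1 lower, or 9.68% either way. Day, reporter and mouse line changed together and cannot be told apart in comparisons with Sox9+ cells. Of 53 measured members 6 were called higher in Lgr5+ cells and 5 lower, or 11.3% and 9.43%, where 4.33% and 3.96% of all 12492 measured symbols were, 8.29% in either direction. After rescaling to TPM the members split 10 to 5 and all symbols 981 to 533. That rescaling moved the median log2 ratio of all symbols from 0.06 to 0.21 in this comparison and from -0.01 to 0.11 in the next. The members' median was 0.08, against 0.06 for all symbols. The calls of Sema3c and Epha2 were kept at every pseudocount and scaling, and the other 9 ended under at least 1.

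The third comparison was of Lgr5- with Sox9+ cells. Fewer members were called here, 11.3% either way, against 15.1% in the first comparison and 20.8% in the second. The shares of all symbols were 8.02%, 5.53% and 8.29% in that order. Of 53 measured members 4 were called higher in Lgr5- cells and 2 lower, or 7.55% and 3.77%, where 3.08% and 4.94% of all 12482 measured symbols were, 8.02% in either direction. The higher genes were Slit2, Robo2, Efnb3 and Epha4, and the lower genes were Epha2 and Sema3c. The members' median was 0.14, against -0.01 for all symbols. The Epha2 call alone was kept at every pseudocount and scaling, and the other 5 ended with a pseudocount of 5.

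**Figure D2:**
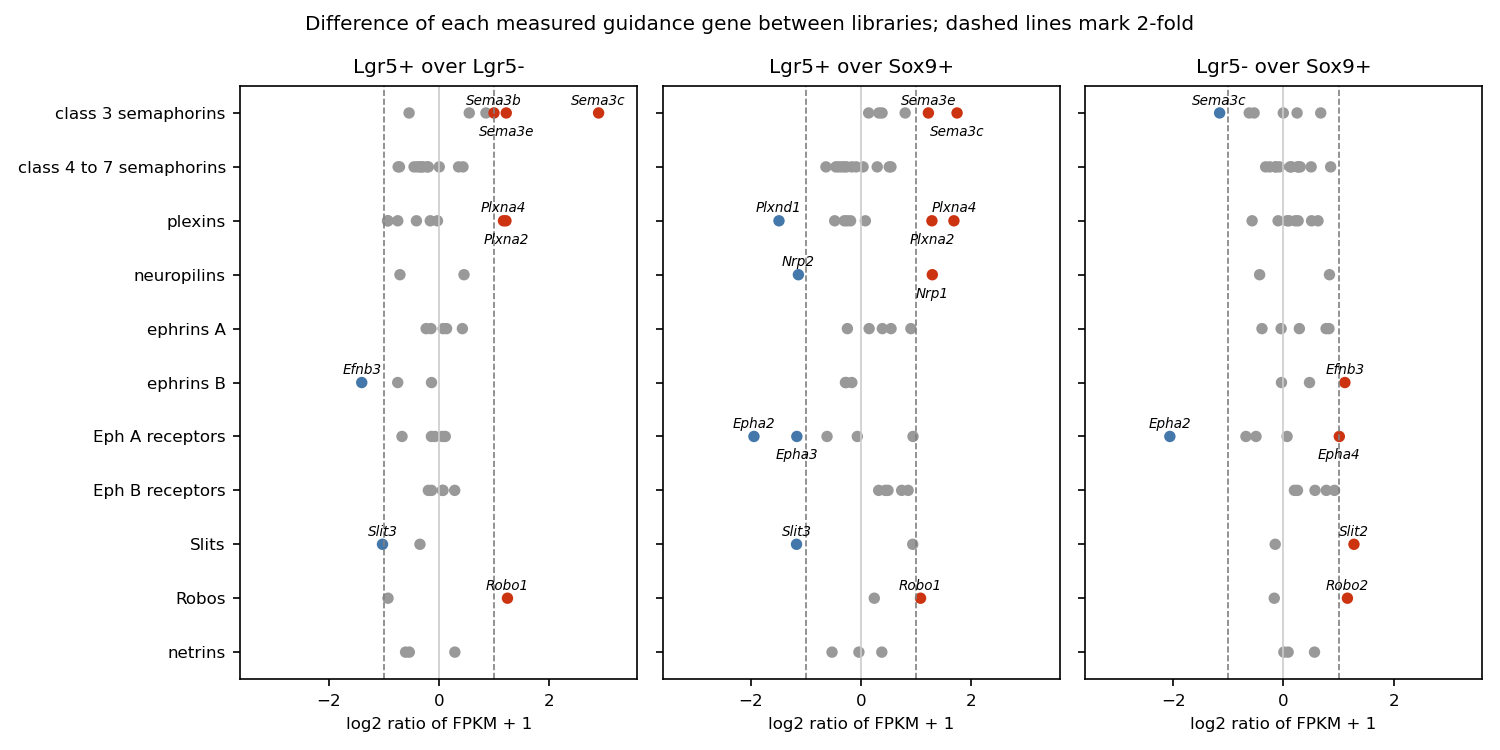
Log2 ratio of FPKM + 1 for each measured guidance gene, by family, in the 3 pairs of libraries, with dashed lines at 2-fold and the genes at or past them named. Sema3c lies farthest to the right in the first panel, at 2.9, and Epha2 farthest to the left in the third, at -2.06.

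Promoter sequence was read for members whose level in 1 library was called against both others. In the RefSeq table of GRCm38.p6, 56 of the 64 genes had an entry. Windows of 250 bases before a gene start were searched on both strands for the E-box CANNTG, the GC box GGGCGG, the SOX core motif AACAAT and the promoter element TATAAA. Of the 8 such members, Sema3c, Sema3e, Plxna2, Plxna4, Robo1, Slit3, Efnb3 and Epha2, those with a window free of annotated exons are shown. These are Sema3e and Robo1, at least 2-fold higher in Lgr5+ cells than in each other library, and Epha2, lower in both E14.5 libraries than in Sox9+ cells, with E-boxes and GC boxes in capitals. The Sema3e window is chr5:14025026-14025275 and the Epha2 window chr4:141300971-141301220. The Robo1 window, chr16:72662899-72663148, precedes a start inside the span of the gene. All lie on the plus strand. The windows of Sema3c, Plxna2 and Slit3 lie wholly or mostly in annotated exons, and Plxna4 and Efnb3 have no entry.
Sema3e: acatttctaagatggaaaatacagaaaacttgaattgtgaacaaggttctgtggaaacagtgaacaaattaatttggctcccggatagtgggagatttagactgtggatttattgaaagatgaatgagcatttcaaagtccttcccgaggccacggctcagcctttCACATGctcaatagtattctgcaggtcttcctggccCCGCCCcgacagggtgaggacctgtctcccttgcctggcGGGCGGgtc
Robo1: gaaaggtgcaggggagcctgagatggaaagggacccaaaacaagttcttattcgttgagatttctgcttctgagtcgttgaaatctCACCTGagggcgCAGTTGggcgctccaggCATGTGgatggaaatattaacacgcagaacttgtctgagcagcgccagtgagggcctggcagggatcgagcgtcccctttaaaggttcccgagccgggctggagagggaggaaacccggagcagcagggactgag
Epha2: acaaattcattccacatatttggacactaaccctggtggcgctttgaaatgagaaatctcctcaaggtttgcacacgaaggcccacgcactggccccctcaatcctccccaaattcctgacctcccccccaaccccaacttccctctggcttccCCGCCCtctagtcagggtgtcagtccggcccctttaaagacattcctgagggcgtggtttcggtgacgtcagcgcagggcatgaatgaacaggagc
In these windows Robo1 had 3 E-boxes and no GC box, Sema3e had 1 E-box and 2 GC boxes, and Epha2 had 1 GC box. The Sema3c window held 2 E-boxes and 3 GC boxes, with 78.4% G and C. An E-box was in 66.2% of all 32807 promoter windows and in 50% of the 72 windows of members, and a GC box was in 32.7% and 70.8%. The SOX core was in 9.43% and 4.17%, and TATAAA in 12.4% and 2.78%. The median window of members held 15 CG pairs, against 6 over all windows, which include non-coding genes. These matches describe letters in a window and do not show that a factor binds there.

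Class 3 semaphorins, the secreted ligands of the neuropilin and plexin complex, were highest in Lgr5+ cells for 5 of 6 measured genes. Sema3c (plus strand of GRCm38 chromosome 5, 17574281 to 17730268) is known for guiding neural crest and cardiac cells. It stood at 118 FPKM in Lgr5+ cells, 14.9 FPKM in Lgr5- cells and 34.5 FPKM in Sox9+ cells. It was the most abundant of the 64 genes in Lgr5+ cells, rank 5 in Sox9+ cells and rank 22 in Lgr5- cells. The level in Lgr5+ cells was 7.45-fold that of Lgr5- cells and 3.34-fold that of Sox9+ cells, and the Lgr5- level was 2.23-fold below the Sox9+ level. Sema3c was the only member past 2-fold in all 3 comparisons, and its order was the same at each pseudocount and scaling. Marker sums for skeletal muscle, macrophages, interzone and perichondrium, bone and tendon were also highest in Lgr5+ cells. In the last list 5 of 12 genes were called higher than in Lgr5- cells and 5 lower. Its sum was mostly Col1a1, at 1198 FPKM in Lgr5+ and 998 FPKM in Lgr5- cells. The 5 higher genes were Fmod (5.33-fold), Kera (5.26-fold), Dcn (3.14-fold) and the tendon genes Tnmd (2.51-fold) and Scx (2.4-fold). The 5 lower genes were Runx2, Sp7, Dlx5, Twist1 and Alpl, while the tendon gene Mkx was level at 1.12-fold. The part of these cell types in the level of Sema3c was not tested.

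Sema3e, a ligand of Plxnd1 (plus strand of chromosome 5, 14025276 to 14256689), has its promoter window with 2 GC boxes printed above. Sema3e stood at 8.8 FPKM in Lgr5+ cells, 3.2 FPKM in Lgr5- cells and 3.21 FPKM in Sox9+ cells. The Lgr5+ level was 2.33-fold that of each other library, which were nearly equal. Plxnd1 itself, a receptor best known from endothelium, went the other way, at 0.89, 2.58 and 4.31 FPKM in Lgr5+, Lgr5- and Sox9+ cells. Its level was 2.81-fold lower in Lgr5+ than in Sox9+ cells and 1.89-fold lower than in Lgr5- cells, short of the limit. Endothelial markers summed to 24.3, 31.1 and 19 FPKM in these samples, and their part in the Plxnd1 levels was not tested.

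Sema3b stood at 6.06, 2.53 and 4.43 FPKM in Lgr5+, Lgr5- and Sox9+ cells, and its Lgr5+ to Lgr5- fold of 2 lay exactly on the limit, a call that ended under median-of-ratios and upper-quartile scaling. Sema3d was just short of it, at 13.6, 7.06 and 10.7 FPKM and 1.81-fold. Sema3a, a repellent of sensory axons that also acts on bone cells, stood at 17.1, 11.4 and 9.41 FPKM, within 2-fold in each comparison. Sema3f alone was highest in Lgr5- cells, at 17.4, 25.7 and 15.7 FPKM, again within 2-fold. Together the class summed to 180.6 FPKM in Lgr5+ cells, 64.9 FPKM in Lgr5- cells and 78 FPKM in Sox9+ cells. Sema3c supplied 65.2%, 23% and 44.3% of these sums. Without it the sums were 62.9, 49.9 and 43.5 FPKM, so the excess in Lgr5+ cells lay mainly in this gene.

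Membrane-bound semaphorins of classes 4 to 7 differed little. None of the 12 measured genes reached 2-fold in any comparison, and the class summed to 94.3, 114.7 and 97 FPKM in Lgr5+, Lgr5- and Sox9+ cells. Sema6a was the most abundant, at 26.8, 31.3 and 34.5 FPKM. Sema4c followed at 21.9, 27.5 and 14.8 FPKM, and Sema6c stood at 16.3, 16.2 and 11.2 FPKM. Sema4c came nearest to the limit, 1.81-fold higher in Lgr5- than in Sox9+ cells, and Sema5a, at 9.24, 16.1 and 13.1 FPKM, was 1.67-fold lower in Lgr5+ than in Lgr5- cells. The other 8 measured genes, Sema4a, Sema4b, Sema4d, Sema4f, Sema4g, Sema5b, Sema6b and Sema6d, ranged from 0.99 FPKM for Sema6b in Lgr5- cells to 5.84 FPKM for Sema4d in Lgr5+ cells.

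Among the receptors of secreted semaphorins, the balance of the neuropilins differed between libraries while their sum hardly did. Nrp1, the co-receptor of Sema3a and of VEGF (plus strand of chromosome 8, 128358604 to 128503363), stood at 19.3, 13.8 and 7.28 FPKM in Lgr5+, Lgr5- and Sox9+ cells. Nrp2, the co-receptor of Sema3f (plus strand of chromosome 1, 62703285 to 62818695), stood at 12.7, 21.4 and 29.2 FPKM, in the opposite order. The sums were 32, 35.1 and 36.5 FPKM. In the Lgr5+ over Sox9+ comparison Nrp1 was 2.45-fold higher and Nrp2 2.2-fold lower, and Lgr5- cells lay between, within 2-fold of both. Nrp1 exceeded Nrp2 in Lgr5+ cells alone, where the ratio of their FPKM was 1.51, against 0.64 in Lgr5- cells and 0.25 in Sox9+ cells. A ratio of genes in a library does not depend on how that library was scaled.

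A plexins, the signalling partners of neuropilins, showed a similar change of make-up. Plxna2 (plus strand of chromosome 1, 194618218 to 194816869) stood at 4.16, 1.22 and 1.12 FPKM in Lgr5+, Lgr5- and Sox9+ cells. Plxna4 (minus strand of chromosome 6, 32144268 to 32588192) stood at 5.29, 1.79 and 0.96 FPKM. Both were therefore low genes that were highest in Lgr5+ cells, 2.32-fold and 2.25-fold above Lgr5- cells and 2.43-fold and 3.21-fold above Sox9+ cells. Plxna1, at 5.89, 10.6 and 8.61 FPKM, and Plxna3, at 6.71, 9.22 and 7.81 FPKM, were lowest in Lgr5+ cells and within 2-fold. The 4 genes summed to 22.1, 22.8 and 18.5 FPKM. The ratio of Plxna2 to Plxna1 was 0.71 in Lgr5+ cells, 0.12 in Lgr5- cells and 0.13 in Sox9+ cells, and that of Plxna4 to Plxna1 was 0.9, 0.17 and 0.11.

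B plexins, receptors of class 4 semaphorins, were steady. Plxnb2 was the most abundant plexin, at 44.5, 49.7 and 53.3 FPKM in Lgr5+, Lgr5- and Sox9+ cells, and Plxnb1 stood at 10.3, 10.5 and 9.72 FPKM. Plxnc1, the receptor of Sema7a, stood at 0.7, 2.24 and 1.1 FPKM and was 1.91-fold lower in Lgr5+ than in Lgr5- cells. Sema7a itself was under 1 FPKM in each library.

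**Figure D3:**
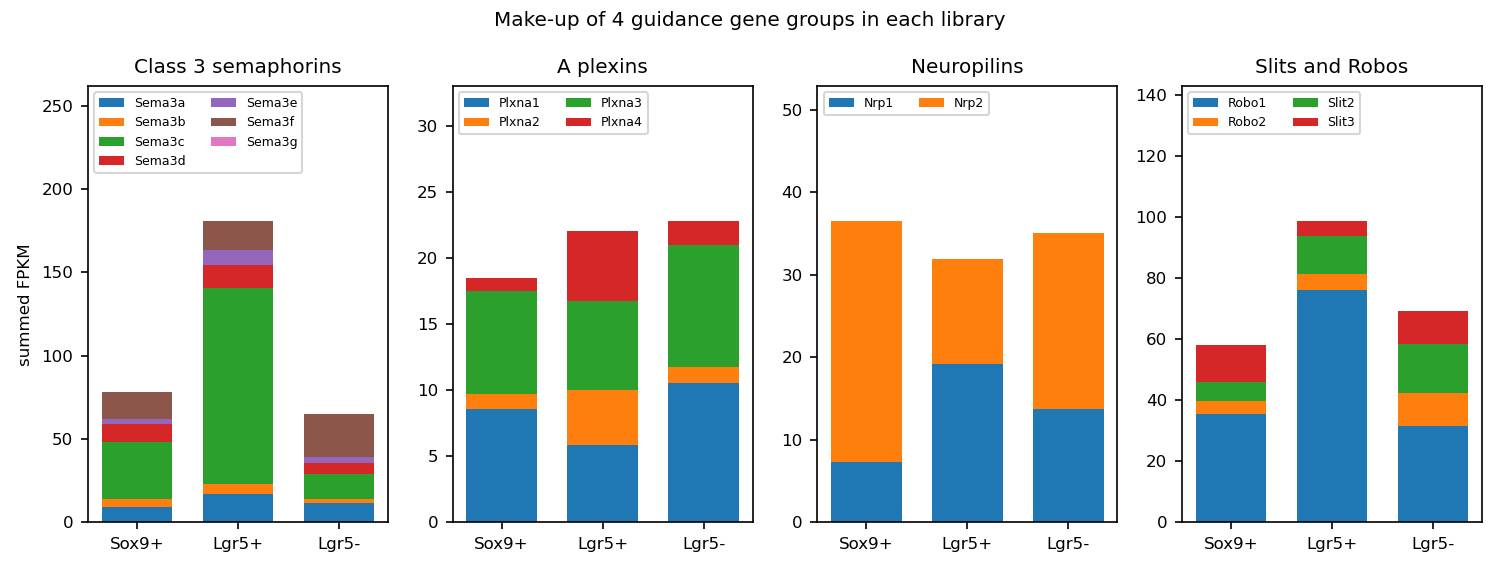
Stacked FPKM of the members of 4 guidance gene groups in Sox9+, Lgr5+ and Lgr5- cells, each bar being 1 library. The class 3 semaphorin bar of Lgr5+ cells reaches 180.6 FPKM, mostly Sema3c, whereas the bars of A plexins and neuropilins have similar heights and differ in their parts.

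The Slits and Robos also differed gene by gene. Robo1, a Slit receptor, whose window with 3 E-boxes is printed above (plus strand of chromosome 16, 72308306 to 73046095), stood at 76 FPKM in Lgr5+ cells, 31.5 FPKM in Lgr5- cells and 35.5 FPKM in Sox9+ cells. That was 2.37-fold and 2.11-fold higher in Lgr5+ cells, while the other libraries lay within 1.12-fold of each other. Robo2 (minus strand of chromosome 16, 73891839 to 74411825) stood at 5.25, 10.8 and 4.3 FPKM, highest in Lgr5- cells, where it was 2.23-fold above the Sox9+ level and 1.89-fold above the Lgr5+ level. The ratio of Robo1 to Robo2 was 14.47 in Lgr5+ cells, 2.9 in Lgr5- cells and 8.25 in Sox9+ cells. With upper-quartile scaling the Robo1 call over Sox9+ cells ended.

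Slit2 (plus strand of chromosome 5, 47983138 to 48307733) stood at 12.5, 16.1 and 6.06 FPKM in Lgr5+, Lgr5- and Sox9+ cells. Both E14.5 libraries lay above Sox9+ cells, by 1.91-fold and 2.42-fold. Slit3 (plus strand of chromosome 11, 35121224 to 35708507) stood at 4.84, 10.9 and 12.2 FPKM, so that Lgr5+ cells were the low ones, 2.03-fold below Lgr5- and 2.25-fold below Sox9+ cells. The leading Slit was Slit3 in Sox9+ cells and Slit2 in the E14.5 libraries, with Slit2 to Slit3 ratios of 0.5 in Sox9+, 2.58 in Lgr5+ and 1.48 in Lgr5- cells.

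**Figure D4:**
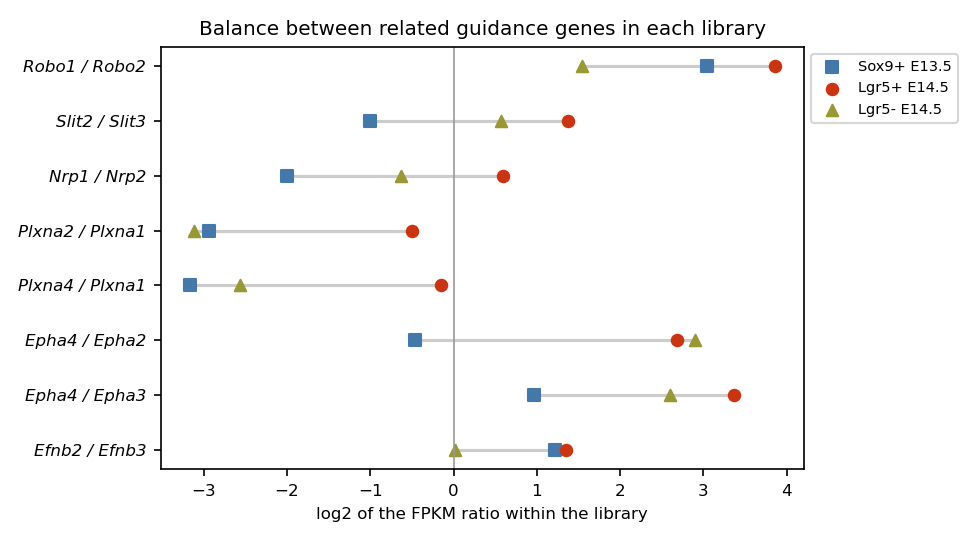
Log2 of the ratio between the FPKM of related guidance genes inside each library, 1 point per library, with the line at 0 marking equal levels. The Lgr5+ point is the rightmost for Robo1 to Robo2 (3.86), Slit2 to Slit3 (1.37), Nrp1 to Nrp2 (0.6) and both A plexin pairs, and the Sox9+ points of the Epha4 pairs lie to the left of both E14.5 points.

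Ephrins, the cell-bound ligands of Eph receptors, were abundant and mostly level. Efna2 led the ephrins A, at 39.3, 43.5 and 35.5 FPKM in Lgr5+, Lgr5- and Sox9+ cells, followed by Efna4 at 21.5, 25.3 and 14.4 FPKM and Efna1 at 24.2, 17.7 and 18.3 FPKM. None of the 5 ephrins A reached 2-fold, and the nearest was Efna5, at 18.3, 17.2 and 9.3 FPKM, which was 1.87-fold higher in Lgr5+ than in Sox9+ cells. The lowest of them, Efna3, stood at 7.31, 6.54 and 8.88 FPKM. Efnb2, known from arteries, stood at 30.2, 33.2 and 34.1 FPKM. Efnb1, whose loss disturbs the skeleton of the face and digits, stood at 18.5, 31.7 and 22.5 FPKM, 1.68-fold lower in Lgr5+ than in Lgr5- cells.

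Efnb3, known as a midline repellent of corticospinal axons (minus strand of chromosome 11, 69554092 to 69560205), was the ephrin that differed. It stood at 11.9 FPKM in Lgr5+ cells, 32.9 FPKM in Lgr5- cells and 14.7 FPKM in Sox9+ cells. The Lgr5- level was 2.64-fold that of Lgr5+ cells and 2.16-fold that of Sox9+ cells. In Lgr5- cells Efnb3 was level with Efnb2, at a ratio of Efnb2 to Efnb3 of 1.01, against 2.55 in Lgr5+ and 2.33 in Sox9+ cells. The neuronal markers Tubb3 (1.24, 6.9 and 2.06 FPKM) and Stmn2 (1.51, 8.7 and 2.71 FPKM) had the same order of libraries as Efnb3. The other measured neuronal markers did not: Nefl (12.7, 12.9 and 15.5 FPKM), Nefm (1.29, 1.47 and 4.46 FPKM) and Prph (1.27, 0.95 and 0.78 FPKM). The part of nerve material in the Efnb3 level was not tested.

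Eph A receptors that were called differed from Sox9+ cells, and none was called between Lgr5+ and Lgr5- cells. Epha2 (plus strand of chromosome 4, 141301240 to 141329384), a receptor of ephrins A found in many epithelia, stood at 4.68, 4.24 and 20.9 FPKM in Lgr5+, Lgr5- and Sox9+ cells. The E14.5 libraries were 3.85-fold and 4.17-fold below Sox9+ cells and within 1.08-fold of each other. The same library stood out in the heat shock genes, with Hspa1a at 1116 FPKM there against 20.2 and 16.1 FPKM. Of 10 measured epidermal markers, 2 (Krt8 and Krt18) were called lower in Lgr5+ than in Sox9+ cells and 3 higher. In Lgr5- against Sox9+ cells 5 of 8 measured epidermal markers were called lower and none higher. The sums of that list were 60, 27.4 and 65.1 FPKM in Lgr5+, Lgr5- and Sox9+ cells. The part of either set in the Epha2 difference was not tested.

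Epha4, a receptor for ephrins of both classes that acts in limb nerve patterning (minus strand of chromosome 1, 77367185 to 77515088), had the opposite order, at 30, 31.6 and 15.2 FPKM in Lgr5+, Lgr5- and Sox9+ cells. It was 2.02-fold higher in Lgr5- than in Sox9+ cells and 1.92-fold higher in Lgr5+ cells, so the E14.5 libraries sat on either side of the limit with nearly equal levels. Epha3 (minus strand of chromosome 16, 63543534 to 63864175) stood at 2.92, 5.23 and 7.8 FPKM and was 2.25-fold lower in Lgr5+ than in Sox9+ cells. Epha7, a marker of limb mesenchyme, was level at 15.7, 17.3 and 16.5 FPKM, and Epha1 stood at 2.34, 2.2 and 4.13 FPKM. The leading Eph A receptor was Epha2 in Sox9+ cells and Epha4 in the E14.5 libraries, and the ratio of Epha4 to Epha2 was 0.73 in Sox9+, 6.42 in Lgr5+ and 7.46 in Lgr5- cells.

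Eph B receptors were the most abundant receptor group by sum, at 135.03 FPKM in Lgr5+ cells, 134.3 FPKM in Lgr5- cells and 100.1 FPKM in Sox9+ cells. Ephb4, the partner of Efnb2 in vessels and bone, stood at 84.5, 80.8 and 67.6 FPKM. The lowest, Ephb1, stood at 2.32, 1.72 and 1.37 FPKM. Ephb3 stood at 27.7, 30.5 and 20.2 FPKM and Ephb6, which lacks kinase activity, at 11.4, 10.7 and 5.85 FPKM. All 5 genes were lower in Sox9+ cells than in each E14.5 library, and none reached 2-fold, the nearest being Ephb2, at 9.15, 10.6 and 5.1 FPKM, with 1.9-fold between Lgr5- and Sox9+ cells. Marker sums for endothelium, macrophages, red blood cells, interzone, and perichondrium, bone and tendon were also lowest in Sox9+ cells. The part of these cell types in the Eph B levels was not tested.

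Netrins other than Ntn3 were low. Ntn3 stood at 10.1, 15.9 and 10.5 FPKM in Lgr5+, Lgr5- and Sox9+ cells, Ntn1 at 1.87, 3.16 and 3.14 FPKM and Ntn4, a basement membrane netrin, at 1.8, 1.29 and 1.16 FPKM. None reached 2-fold in any comparison. Of their receptor genes, Neo1 stood at 28.9, 35.7 and 30.7 FPKM, Unc5c at 5.59, 7.25 and 10.05 FPKM and Unc5b at 2.78, 5.04 and 4.3 FPKM. Dcc, Unc5a and Unc5d were under 1 FPKM in each library.

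Partner genes outside the 64 were read from 4 lists of receptors, co-receptors and effectors. Of the netrin receptor and repulsive guidance list, 1 of 8 measured genes was at least 2-fold higher in Lgr5+ than in Lgr5- cells and none lower. That gene was Cdon, a hedgehog co-receptor that also associates with Neo1, at 29, 10.9 and 7.94 FPKM in Lgr5+, Lgr5- and Sox9+ cells. Of 22 measured semaphorin co-receptors and effectors, 1 was lower, Crmp1, a cytoplasmic mediator of semaphorin signals in neurons, at 1.63, 4.6 and 1.64 FPKM. Of 20 Eph and ephrin partners, 1 was higher, Vav3, at 5.61, 1.82 and 1.9 FPKM.

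Among 18 Slit and Robo partners, 2 were higher in Lgr5+ than in Lgr5- cells and 1 lower. Nell2, a ligand of Robo3, stood at 4.22, 20.8 and 6.43 FPKM and was 4.17-fold lower in Lgr5+ cells, and Robo3 was under 1 FPKM in each library. Nell1, a related secreted protein known from bone formation, stood at 2.69, 0.67 and 0.67 FPKM, and Cables1, a Robo-linked adaptor, at 7.04, 3 and 5.02 FPKM. Over the 4 lists, 4 of 68 measured partners were higher in Lgr5+ than in Lgr5- cells and 2 lower, or 5.88% and 2.94%, beside 3.64% and 1.89% of all symbols. Over Sox9+ cells, 3 of 69 measured partners, or 4.35%, were higher in Lgr5+ cells, about the 4.33% of all symbols. They were Cdon (3.35-fold), Vav3 (2.28-fold) and Nell1 (2.21-fold), and Flrt3 was lower, at 8.34 against 21.6 FPKM. In the Lgr5- over Sox9+ comparison 2 of 66 were higher, Nell2 (2.93-fold) and Crmp1 (2.12-fold), and 3 were lower, Flrt3 (2.08-fold), Ngef (2.06-fold) and Rnd1 (2.05-fold). Those shares, 3.03% and 4.55%, were also near the 3.08% and 4.94% of all symbols.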

How the data were processed

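RNA-seq values for 3 libraries, 1 per group, were used as deposited. Per the file headers the values are FPKM, made by the authors, with 1 value per gene symbol rounded to 2 decimals. The submitters' processing notes name HISAT2, mm10 and GRCm38. The sources used here do not give the tool behind the FPKM, its annotation or the treatment of multi-mapped reads. Per the labels' protocols, libraries were made from 10 ng of RNA with a SMARTer kit, which does not mark strand. Reads shared with overlapping genes cannot be told apart, and among the 16 members that differed only Nrp1 (0.82% of exonic bases) and Plxna4 (0.78%) overlap another gene in GENCODE M21 (GRCm38), which also gave the coordinates.

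Ratios were computed as log2 of FPKM + 1 in Python 3.11.15 with pandas 2.3.3. A gene was measured at 1 FPKM or more in the higher library and called at 2-fold. The scripts were tested on simulated data. No test was possible with 1 library per group. The text names each member called in a comparison, the 3 most abundant members of each of 11 families, and up to 4 called partner genes per list and comparison. Members, lists and markers were chosen with earlier results of these data known, and the pairs for ratios inside a library, the promoters and other single genes after their values were seen. Older symbols were matched through RefSeq synonyms. Alternatives were pseudocounts of 0.1 and 5, no minimum or 5 FPKM, folds of 1.5 and 3, and scaling to TPM, by median of ratios and by upper quartile.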

Additional observations from a re-analysis of the deposited data

How the results depend on the processing

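No library could be left out, since each group is 1 library, and depth is unknown, so no counting limit can be given for low genes such as Plxna2 and Plxna4. No paired analysis was possible because no group has a second library and no test was run. Counts are given as members higher then lower in the named comparison. For Lgr5+ over Lgr5- the counts of 6 and 2 became 2 and 1 with a pseudocount of 5, 6 and 5 with 0.1, 7 and 12 at 1.5-fold, 1 and 0 at 3-fold, and 6 and 4 in TPM. Those of all symbols went from 453 and 235 to 202 and 81, 694 and 458, 1178 and 741, 169 and 61, and 616 and 355. For Lgr5+ over Sox9+ the counts of 6 and 5 became 2 and 1 with a pseudocount of 5, 12 and 7 at 1.5-fold, 2 and 1 at 3-fold, and 10 and 5 in TPM. All symbols went from 541 and 495 to 193 and 193, 1574 and 1237, 173 and 155, and 981 and 533. For Lgr5- over Sox9+ the counts of 4 and 2 became 0 and 1 with a pseudocount of 5, 12 and 4 at 1.5-fold, and 0 and 1 at 3-fold. All symbols went from 384 and 617 to 139 and 273, 1186 and 1596, and 118 and 196. A pseudocount of 5 shrinks the ratios of low genes by construction. Every other member count stayed within 1.5 times, and no called member changed direction under any pseudocount or scaling.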

Other observations

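Some members that are neighbours among the members on a GRCm38 chromosome differed in direction, and others did not. The closest pairs were Robo4 and Robo3 (0.553 kb), Efna3 and Efna4 (10.4 kb) and Efna1 and Efna3 (32.8 kb). Robo3 and Robo4 were under 1 FPKM in each library, and these ephrins A stayed within 2-fold in each comparison. Robo1 and Robo2 are neighbours among the members on chromosome 16, 845.7 kb apart on opposite strands, and Robo1 was highest in the Lgr5+ library while Robo2 was highest in the Lgr5- library. Sema3b and Sema3f lie 72.3 kb apart on chromosome 9, and Sema3b was highest in the Lgr5+ library while Sema3f was highest in the Lgr5- library. On chromosome 5, Sema3d, Sema3a and Sema3e follow each other with gaps of 536.5 and 422.7 kb, and Sema3c lies 3318 kb further on. All 4 were highest in the Lgr5+ library, with folds over the Lgr5- library of 1.81, 1.47, 2.33 and 7.45 in that order.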
